A study of Homo sapiens with 4 samples.

Results

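The genes described here are 10 genes for proteins that the fetal liver secretes into plasma: AFP, ALB, TTR, SERPINA1, ITIH2, SPINK1, AHSG, FGA, FGB and FGG. They were found by gene symbol among the 60234 Ensembl genes of the count table, and all 10 were present. They were picked with earlier results of these data known, because AFP, ITIH2, SPINK1 and SERPINA1 stood among the largest increases with retinoic acid (RA) in GFP-negative cells. The levels in the GFP-negative cells are therefore given as a description.

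RNA was sequenced from the NKX2.5:GFP line, a human embryonic stem cell (hESC) reporter in which 1 NKX2-5 allele carries eGFP, so that green cells are those that switched on this cardiac transcription factor. Spin embryoid bodies were differentiated toward heart muscle and received either 1 µM RA or the solvent DMSO (CTR) from day 4 to day 7. On day 31 they were sorted by GFP, which gave 4 libraries: RA GFP-positive, RA GFP-negative, CTR GFP-positive and CTR GFP-negative. All 4 share the reporter allele and the differentiation protocol, and the GFP-negative gate holds every cell type that was not green.

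Each group has 1 library, so no difference between conditions could be tested and no p-value is given. Intervals in parentheses are 95% intervals for the counting of reads, and they hold neither the spread between cultures nor that between library preparations. The RA GFP-positive, RA GFP-negative and CTR GFP-positive libraries had 28125727, 26222787 and 28643091 reads, and the CTR GFP-negative library had 4371101. A count of 0, which allows up to 3 reads, corresponds to 0.639 CPM (read counts scaled to the depth of the library) for CTR GFP-negative cells, against 0.105 to 0.117 CPM in the other 3 libraries. A fold given as at least sets a count of 0 to 3 reads and takes the other count without error. The 95% lower limit of such a ratio is smaller. CPM were scaled with TMM factors, and differences are those of log2(CPM + 1). In every count of genes, higher, lower and within 2-fold refer to a difference of 1 on that scale, so that a gene at a low level can have a ratio of CPM above 2 and still be counted as within 2-fold.

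AFP and ALB are related carrier proteins of plasma; AFP is the main one of the fetus and gives way to albumin after birth. TTR carries thyroid hormone and, with its partner, vitamin A. SERPINA1 (alpha-1-antitrypsin) inhibits neutrophil elastase, ITIH2 is a heavy chain that joins the inter-alpha-trypsin inhibitors, SPINK1 is a small trypsin inhibitor best known from the pancreas, and AHSG (fetuin-A) binds calcium phosphate. FGA, FGB and FGG encode the 3 chains of fibrinogen, the precursor of fibrin in blood clots. In the embryo many of these genes are also active in the yolk sac, and several are read in gut epithelium, so their RNA alone does not name a cell type. TTR is also a major transcript of the choroid plexus and of the pigment epithelium of the eye.

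On the GRCh37 (hg19) assembly AFP (chr4:74296855-74321891) and ALB (chr4:74262831-74287199) lie next to each other on the plus strand. The fibrinogen genes are clustered on the same chromosome, FGB (chr4:155484163-155493959) on the plus strand and FGA (chr4:155504278-155511894) and FGG (chr4:155525286-155534119) on the minus strand. SERPINA1 (chr14:94843084-94857030) and SPINK1 (chr5:147204135-147211234) are on the minus strand, and ITIH2 (chr10:7745279-7791483), AHSG (chr3:186330849-186339107) and TTR (chr18:29136972-29178796) on the plus strand. All 10 are annotated as protein coding, and 0 of their exon bases are shared with another annotated gene.

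CEBPA, of the C/EBP family, is a liver transcription factor known to act on many genes for plasma proteins, and the letters TTGCNNAA, a C/EBP site with N for any base, were searched on both strands (TTNNGCAA when read on the opposite strand) in the 250 bases before each RefSeq start. A window was given for 8 of the 10 genes, TTR and ITIH2 being the others, and 5 of the 8 held the letters: AFP, ALB, AHSG, FGA and FGB. Counted by window, as FGB and SERPINA1 have 2 starts each, 6 of 10 windows held them. The 2 windows of FGB overlap and hold the same site, which is thus counted in both. Of all 35116 promoter windows of the same length, 9.05% held them. The windows of FGG, SPINK1 and SERPINA1 held no match, which says only that these letters are not there. The motif was chosen after the sequences and the levels of CEBPA had been seen, so its share among the genes is a description. The sequences are RefSeq's, from a GRCh38.p14 table, placed on GRCh37 by exact match, and they are shown because these 5 genes share the match, among them AFP with its relative ALB and 2 chains of fibrinogen. Each runs 5′ to 3′ on the gene's own strand, ends at or before the start site, leaves out annotated exon bases, and has the matched letters in capitals.

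AFP, plus strand, chr4:74301688-74301937: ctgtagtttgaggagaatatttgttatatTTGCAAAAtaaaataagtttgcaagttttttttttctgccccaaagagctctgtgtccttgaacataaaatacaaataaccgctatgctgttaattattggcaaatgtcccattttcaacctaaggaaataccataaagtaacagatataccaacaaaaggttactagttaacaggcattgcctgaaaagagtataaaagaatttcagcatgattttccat
ALB, plus strand, chr4:74269754-74269971: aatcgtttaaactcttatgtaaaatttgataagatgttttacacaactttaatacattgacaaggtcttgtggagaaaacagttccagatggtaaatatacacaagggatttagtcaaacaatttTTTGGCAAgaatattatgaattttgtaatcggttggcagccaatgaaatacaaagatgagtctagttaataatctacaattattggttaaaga
AHSG, plus strand, chr3:186330599-186330848: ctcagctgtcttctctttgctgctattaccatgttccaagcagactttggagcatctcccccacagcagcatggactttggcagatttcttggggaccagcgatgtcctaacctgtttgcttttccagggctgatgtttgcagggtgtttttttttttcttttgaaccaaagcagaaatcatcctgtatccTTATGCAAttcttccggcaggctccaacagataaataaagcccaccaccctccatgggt
FGB, plus strand, chr4:155483882-155484131: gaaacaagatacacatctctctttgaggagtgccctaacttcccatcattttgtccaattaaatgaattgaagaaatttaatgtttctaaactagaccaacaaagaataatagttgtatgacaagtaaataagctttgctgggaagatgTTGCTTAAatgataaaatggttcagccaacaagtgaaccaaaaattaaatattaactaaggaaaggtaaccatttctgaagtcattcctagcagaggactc
FGA, minus strand, chr4:155511895-155512144: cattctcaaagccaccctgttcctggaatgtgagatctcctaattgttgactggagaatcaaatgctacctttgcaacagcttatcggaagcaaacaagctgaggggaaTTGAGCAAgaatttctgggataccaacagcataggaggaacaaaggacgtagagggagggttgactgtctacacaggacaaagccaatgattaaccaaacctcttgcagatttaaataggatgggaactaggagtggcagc

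The match stood 221 to 214 bases before the start in AFP, 125 to 118 in ALB, 59 to 52 in AHSG, 101 to 94 in FGB and 141 to 134 in FGA. In AFP and FGB it read along the gene, and in ALB, AHSG and FGA on the opposite strand. A match is a description of the letters and not a measured binding site. The genes with a match lay at both ends of the range of CPM in RA GFP-negative cells, AFP at the highest and AHSG at the lowest. CEBPA itself had 360 reads in the RA GFP-negative library, 53 in RA GFP-positive, 59 in CTR GFP-positive and 6 in CTR GFP-negative. The depth was 4371101 reads in CTR GFP-negative and 28643091 in CTR GFP-positive, so these counts do not compare as levels.

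The 10 genes were read mostly in 1 library. Together they had 27543 reads in RA GFP-negative cells, which was 0.105% of that library and 1073 CPM (1061 to 1086). They had 1376 reads in RA GFP-positive cells (51.5 CPM), 405 in CTR GFP-negative cells (86.2 CPM) and 266 in CTR GFP-positive cells (9.28 CPM). At least 10 CPM was reached by 9 of the 10 genes in RA GFP-negative cells, by 2 in RA GFP-positive cells, by 1 in CTR GFP-negative cells and by 0 in CTR GFP-positive cells. In bulk libraries such as these, more cells of a kind and more RNA per cell cannot be told apart.

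**Figure D1:**
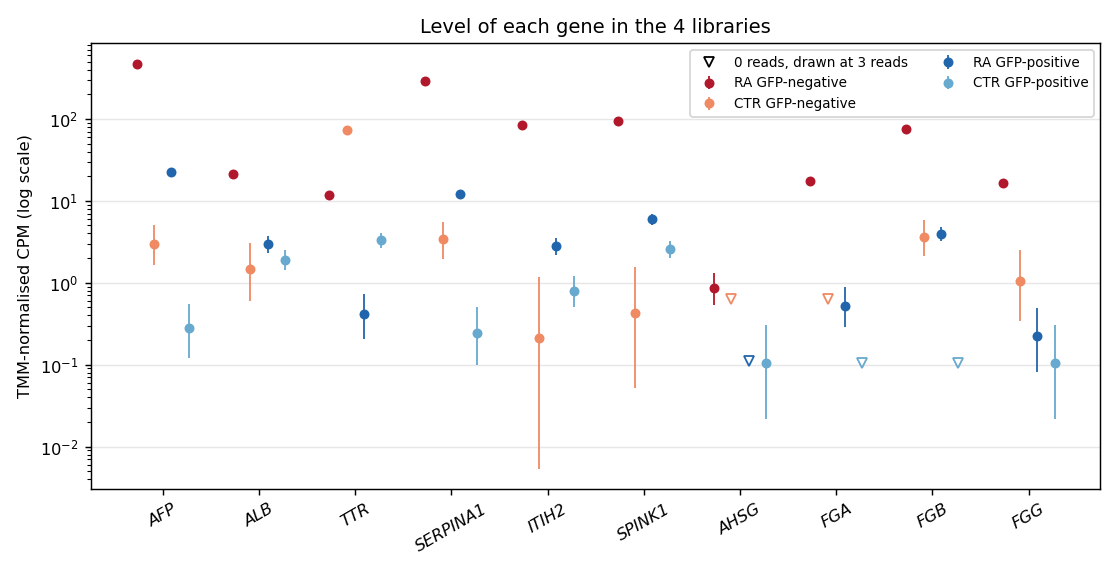
TMM-normalised CPM on a log axis for each of the 10 genes in the 4 libraries, with bars for the exact Poisson 95% interval of the count and open triangles for 0 reads, drawn at the level of 3 reads. The RA GFP-negative library is the highest for every gene except TTR, which is highest in the CTR GFP-negative library at 73.0 CPM.

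Among the carriers, AFP had 11921 reads in RA GFP-negative cells (465 CPM), 604 in RA GFP-positive cells (22.6 CPM), 14 in CTR GFP-negative cells (2.98 CPM) and 8 in CTR GFP-positive cells (0.279 CPM). It was highest with RA in both fractions, and each RA library lay above both control libraries. In GFP-negative cells the ratio of RA to control was 156 (92.8 to 285), a log2 difference of 6.87 and ranking 1st of the 11606 genes that reached 10 CPM in at least 1 of these libraries. The increases of AFP, ITIH2, SPINK1 and SERPINA1 in this comparison led to the choice of the group, so their ranks are a description. Their order also depends on the value added to CPM. With 0.25 CPM in place of 1, ITIH2 (7.53) stood above AFP (7.17).

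ALB had 549 reads in RA GFP-negative cells (21.4 CPM), 79 in RA GFP-positive cells (2.95 CPM), 7 in CTR GFP-negative cells (1.49 CPM) and 55 in CTR GFP-positive cells (1.92 CPM). Only the RA GFP-negative library stood apart, and the other 3 lay between 1.49 and 2.95 CPM. The RA to control ratio in GFP-negative cells was 14.4 (6.92 to 35.9), with a log2 difference of 3.17.

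Compared per kilobase of exon, so that length is taken out, AFP stood above ALB by a factor of 23.3 (21.4 to 25.4) in RA GFP-negative cells. The factor was 8.19 (6.47 to 10.5) in RA GFP-positive cells and 2.14 (0.810 to 6.28) in CTR GFP-negative cells. For the CTR GFP-positive library it was 0.156 (0.0641 to 0.329), with ALB the higher of the pair. The intervals of both RA libraries and of the CTR GFP-positive library do not overlap one another, and that of the CTR GFP-negative library, from 14 and 7 reads, is wide but also lies below both RA intervals.

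TTR was the exception in the group. It had 299 reads in RA GFP-negative cells (11.7 CPM), 11 in RA GFP-positive cells (0.411 CPM), 343 in CTR GFP-negative cells (73.0 CPM) and 94 in CTR GFP-positive cells (3.28 CPM). Both control libraries were above the RA library of the same fraction. In GFP-negative cells the control was 6.27-fold (5.35 to 7.35) above RA, a log2 difference of -2.55, and in GFP-positive cells 7.98-fold (4.26 to 16.5) above RA, a log2 difference of -1.60.

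TTR was lower with RA in GFP-negative cells, as were genes of melanin synthesis. On a list of 12 genes of pigment epithelium and choroid plexus, 7 had at least 10 CPM in a GFP-negative library, of which 5 were at least 2-fold lower with RA, 2 were within 2-fold and 0 were higher. Their levels summed to 257 CPM after RA, compared with 824 CPM after DMSO. TYR, the first enzyme of melanin synthesis, had 5 reads against 85 (log2 difference -4.00), DCT, another melanin enzyme, 180 against 511 (-3.78), and PMEL, a melanosome protein, 1236 against 2087 (-3.18), RA first. Counted from 1 CPM, 11 of the 12 genes passed, with 6 lower, 2 higher and 3 within 2-fold. The 2 higher ones, KL and FOLR1, are known from choroid plexus, with 42 reads against 0 and 54 against 2, whereas KCNJ13, of choroid plexus and pigment epithelium, had 3 against 16. RPE65, which defines pigment epithelium of the eye, had 2 reads with RA and 0 without. In GFP-positive cells, where TTR was lower with RA as well, the list did not go with it: 3 of the 12 genes reached 10 CPM, with 0 lower, 0 higher and 3 within 2-fold, and from 1 CPM 7 passed, with 1 lower and 6 within 2-fold. The summed level there was 518 CPM after RA, compared with 403 CPM after DMSO. The part of such cells in the TTR level was not tested.

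Of the protease inhibitors, SERPINA1 had 7347 reads in RA GFP-negative cells (286 CPM), 321 in RA GFP-positive cells (12 CPM), 16 in CTR GFP-negative cells (3.41 CPM) and 7 in CTR GFP-positive cells (0.244 CPM). The libraries stood in the same order as for AFP. The RA to control ratio in GFP-negative cells was 84.0 (51.7 to 147), and the log2 difference of 6.03 was the 5th largest increase. With 5 CPM added in place of 1, SERPINA1 (5.11) stood above SPINK1 (4.20) and ITIH2 (4.11).

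ITIH2 had 2183 reads in RA GFP-negative cells (85.1 CPM), 75 in RA GFP-positive cells (2.80 CPM), 1 in CTR GFP-negative cells (0.213 CPM) and 23 in CTR GFP-positive cells (0.803 CPM). In GFP-negative cells its log2 difference was 6.15, the 3rd largest increase, but its ratio of 399 rests on 1 control read and could be as low as 71.6 or as high as 15785. The rank depends on the value added to CPM. With 5 CPM in place of 1 the difference was 4.11, below SERPINA1 (5.11) and SPINK1 (4.20), and with 0.25 CPM 7.53, above AFP (7.17).

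SPINK1 had 2431 reads in RA GFP-negative cells (94.7 CPM), 160 in RA GFP-positive cells (5.98 CPM), 2 in CTR GFP-negative cells (0.426 CPM) and 73 in CTR GFP-positive cells (2.55 CPM). Its log2 difference in GFP-negative cells was 6.07, the 4th largest increase, with a ratio of 222 (61.5 to 1838). In the control cultures it was the GFP-positive library that had the more SPINK1, 5.98-fold (1.60 to 50.3) above GFP-negative, although both levels were under 3 CPM.

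AHSG was nearly unread, with 22 reads in RA GFP-negative cells (0.857 CPM), 0 in RA GFP-positive cells, 0 in CTR GFP-negative cells and 3 in CTR GFP-positive cells (0.105 CPM). It was the only one of the 10 that did not reach 10 CPM in any library. In GFP-negative cells RA was at least 1.34-fold above the control, counted against 3 reads in the control library.

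Of the fibrinogen chains, FGB had the most reads, 1927 in RA GFP-negative cells (75.1 CPM), 106 in RA GFP-positive cells (3.96 CPM), 17 in CTR GFP-negative cells (3.62 CPM) and 0 in CTR GFP-positive cells. FGA had 445 reads in RA GFP-negative cells (17.3 CPM), 14 in RA GFP-positive cells (0.523 CPM) and 0 in both control libraries. FGG had 419 reads in RA GFP-negative cells (16.3 CPM), 6 in RA GFP-positive cells (0.224 CPM), 5 in CTR GFP-negative cells (1.06 CPM) and 3 in CTR GFP-positive cells (0.105 CPM). All 3 chains were highest in RA GFP-negative cells. There the RA level was 20.7-fold (12.9 to 35.7) above control for FGB, 15.3-fold (6.52 to 47.5) for FGG and at least 27.1-fold for FGA, counted against 3 reads.

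The chains are assembled in equal number in the protein, but their RNA was not read equally. Per kilobase of exon, FGB stood 3.88-fold (3.50 to 4.31) above FGA and 3.79-fold (3.40 to 4.22) above FGG in RA GFP-negative cells, while FGA and FGG had a ratio of 0.976 (0.852 to 1.12). In RA GFP-positive cells FGB was 6.78-fold (3.87 to 12.8) above FGA and 14.5-fold (6.46 to 40.5) above FGG. With the length of a single annotated transcript in place of all exon bases FGB stayed the highest of the 3 in RA GFP-negative cells, at 2.62-fold above FGG and at 4.35-fold (longest transcript) or 2.63-fold (canonical transcript, a length chosen after the data were seen) above FGA.

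Across the group, the order of levels per kilobase in RA GFP-negative cells was AFP (145 CPM per kilobase), SPINK1 (69.6), SERPINA1 (58.4), ITIH2 (25.5), FGB (17.2), ALB (6.24), TTR (5.35), FGG (4.54), FGA (4.43) and AHSG (0.387). The counting intervals of ALB and TTR, of TTR and FGG, and of FGG and FGA overlap, and those of the other neighbours do not. With the longest transcript as the length, SERPINA1 (81.1) stood above SPINK1 (79.7) and TTR (12.2) above ALB (9.36). With the canonical transcript, SPINK1 (229) stood above AFP (191), so that the first place depends on the length taken, and SERPINA1 was at 95.2 and TTR at 18.9.

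**Figure D2:**
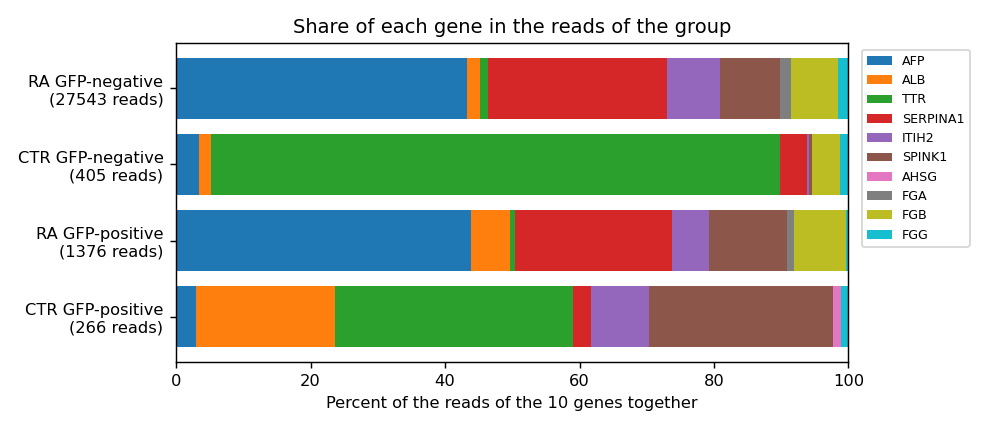
Share of each gene in the summed reads of the 10 genes, in percent, with 1 bar per library and the number of summed reads beside it. AFP and SERPINA1 are the largest shares in both RA libraries, at 43.3% and 26.7% in GFP-negative and 43.9% and 23.3% in GFP-positive cells, whereas TTR is the largest in CTR GFP-negative cells at 84.7%.

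The counting intervals of the shares overlapped between the RA fractions for AFP, FGB, FGA, TTR and AHSG, and did not for SERPINA1, ITIH2, FGG, ALB and SPINK1. AFP made up 43.3% (42.7 to 43.9) of their reads in RA GFP-negative cells and 43.9% (41.3 to 46.6) in RA GFP-positive cells. SERPINA1 made up 26.7% (26.2 to 27.2) and 23.3% (21.1 to 25.7), and FGB 7.00% (6.70 to 7.30) and 7.70% (6.35 to 9.24). ITIH2 made up 7.93% (7.61 to 8.25) in GFP-negative against 5.45% (4.31 to 6.78) in GFP-positive cells, and FGG 1.52% (1.38 to 1.67) against 0.436% (0.160 to 0.947). ALB was the larger share in GFP-positive cells, 5.74% (4.57 to 7.10) against 1.99% (1.83 to 2.17), as was SPINK1, with 11.6% (9.98 to 13.4) against 8.83% (8.49 to 9.17). In CTR GFP-positive cells the leading shares were TTR with 35.3%, SPINK1 with 27.4% and ALB with 20.7%, and AFP had 3.01%.

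With RA in GFP-negative cells, 9 of the 10 genes had at least 10 CPM in either library, of which 8 were at least 2-fold higher and 1, TTR, was lower. Of all 11606 genes at that level 4.95% were at least 2-fold higher and 3.18% lower, and nothing is read from the comparison because this contrast chose the genes. The balance over all genes depended on the scaling: 574 were higher and 369 lower with TMM, 448 and 512 with library size alone, 470 and 444 with upper quartile factors, and 438 and 494 with library size without mitochondrial and top 10 genes, while 8 of the 9 were higher and 1 lower under each. The median log2 difference was 4.20 over the 9 and 0.08 over all genes. TTR at -2.55 and FGG at 3.07 lay closest to the 2-fold threshold among the genes past it, and AHSG, below 10 CPM, had a difference of 0.89. With all libraries thinned to 4371101 reads, the difference was 6.86 for AFP, 6.05 for SERPINA1, 5.96 for ITIH2, 6.07 for SPINK1 and -2.61 for TTR.

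In GFP-positive cells, 2 of the 10 genes had at least 10 CPM in either library, AFP and SERPINA1. Both were at least 2-fold higher with RA, where 4.14% of all 11186 genes were higher and 1.67% lower. AFP was 80.9-fold (40.8 to 188) and SERPINA1 49.1-fold (23.6 to 123) above control, with log2 differences of 4.20 and 3.39. Both had reached 10 CPM through the RA library alone.

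With the level lowered to 1 CPM, 7 of the 10 genes could be counted in GFP-positive cells, of which 4 were higher, 1 was lower and 2 were within 2-fold. The share of all genes was then 5.09% higher and 2.12% lower. FGB was at least 37.9-fold higher against 0 control reads, and ITIH2, 3.49-fold (2.17 to 5.84) higher with a log2 difference of 1.08, lay just past the threshold. SPINK1, 2.35-fold (1.77 to 3.14) higher with a log2 difference of 0.98, lay just short of it, and ALB was 1.54-fold (1.08 to 2.21) higher. FGA, with 14 reads against 0, was at least 5.0-fold higher, and FGG, with 6 reads against 3, had a ratio of 2.14 (0.458 to 13.2). For ALB, ITIH2 and SPINK1 the counting intervals of the GFP-positive ratios lie below those of the GFP-negative ratios, 14.4, 399 and 222. For AFP, SERPINA1, FGG and TTR the intervals of the fractions overlap. The GFP-negative ratios of ITIH2 and SPINK1 are among the values that chose the group, and whether the fractions differed beyond the spread between cultures was not tested.

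**Figure D3:**
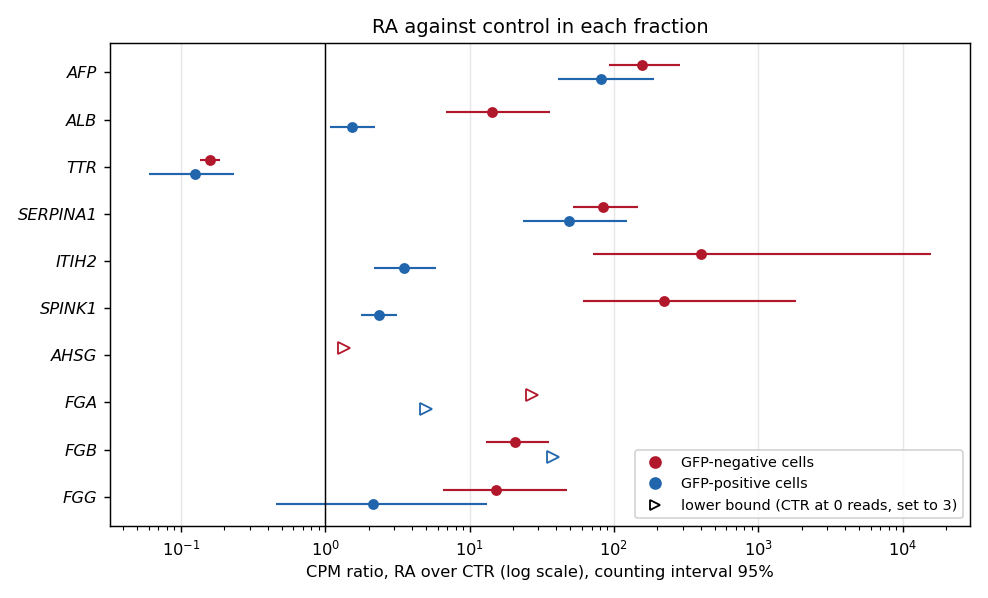
Ratio of CPM with RA to CPM in the control for each gene on a log axis, in GFP-negative (red) and GFP-positive (blue) cells. Bars are Clopper-Pearson 95% intervals, and open triangles give the ratio to 3 reads where the control had 0 reads. TTR lies at 0.160 and 0.125, left of the line of equal levels, and AFP at 156 and 80.9 lies to its right in both fractions; AHSG in GFP-positive cells, with 0 and 3 reads, is not drawn.

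Between the fractions of the RA-treated cultures, all 9 genes that had at least 10 CPM in either library were lower by at least 2-fold in the GFP-positive fraction, where 12.4% of all 11850 genes were lower and 9.97% higher. This comparison shares the RA GFP-negative library with the contrast that chose the genes, and 7 of the 9 reached 10 CPM through that library alone, so nothing is read from the count. GFP-negative cells were above GFP-positive cells by 20.6-fold (19.0 to 22.4) for AFP, 23.9-fold (21.3 to 26.8) for SERPINA1, 30.3-fold (24.1 to 38.7) for ITIH2 and 15.8-fold (13.5 to 18.7) for SPINK1. The factor was 28.3 (15.6 to 57.4) for TTR, 33.1 (19.5 to 61.1) for FGA, 18.9 (15.6 to 23.3) for FGB and 72.8 (33.2 to 199) for FGG. ALB had the smallest, 7.24 (5.71 to 9.29), and its interval does not overlap that of any of the other 8.

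Written as a percent of the GFP-negative level, the RA GFP-positive level of the 9 genes ran from 1.37% for FGG to 13.8% for ALB, with a median of 4.19%. Stomach and intestinal genes had like values, with a median of 5.68% over 5 stomach genes (3.82% to 16.5%) and of 5.64% over 7 intestinal genes (0% to 61.2%, the highest being LGR5). Over 10 hepatic transcription factors the median was 11.6% (4.61% to 638%, the highest being PROX1, which heart muscle also expresses), with 14.1% for both FOXA1 and CEBPA. The median percent was also higher for 6 general epithelial genes, at 25.3% (11.4% to 44.0%), and for 6 stromal genes, at 16.2% (7.42% to 38.8%). The 6 cardiomyocyte genes were the other way, at 1695% to 6203%. Between RA and control all 6 stromal genes were at least 2-fold higher with RA in GFP-positive cells (summed level 14870 CPM against 3834 CPM), and the 6 cardiomyocyte genes summed to 14121 CPM against 15980 CPM. Of all 11186 genes in that comparison, 4.14% were at least 2-fold higher and 1.67% lower. How far GFP-negative cells within the GFP-positive gate account for the reads of the 10 genes was not tested.

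**Figure D4:**
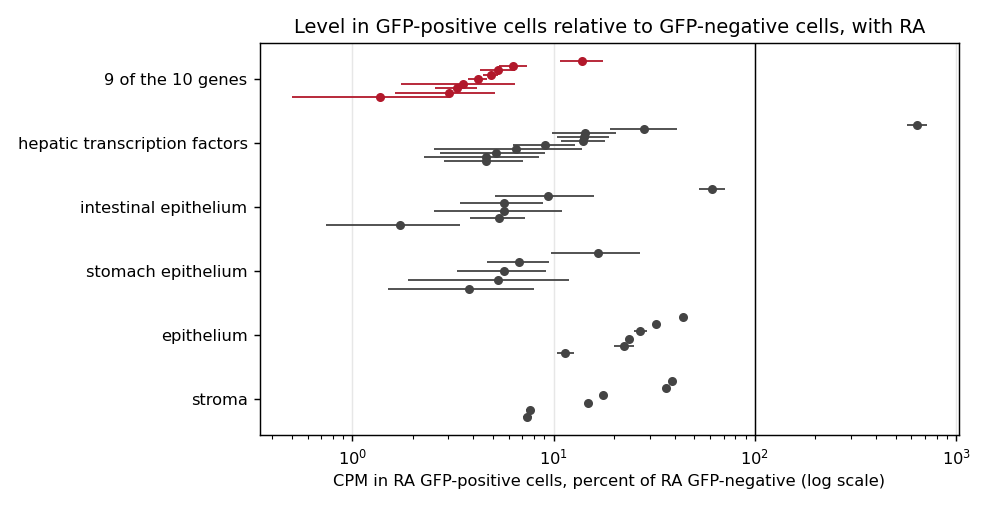
Level in RA GFP-positive cells as a percent of RA GFP-negative cells on a log axis, for genes with at least 100 reads in the latter and at least 1 in the former, with counting intervals of 95% and a line at 100%. The 9 genes lie between 1.37% and 13.8%, left of the 6 general epithelial genes except ALB, which at 13.8% is above the lowest of them (11.4%).

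In the control cultures TTR alone had at least 10 CPM in a library, and it was 22.3-fold (17.7 to 28.3) lower in GFP-positive cells, where 13.3% of all 11806 genes were at least 2-fold lower and 11.9% higher. AFP was 10.7-fold (4.18 to 29.4) and SERPINA1 13.9-fold (5.43 to 40.1) lower in GFP-positive cells, from 8 against 14 and 7 against 16 reads in libraries of unequal depth. FGB, with 17 reads against 0, was at least 34.6-fold lower in GFP-positive cells. ALB had a ratio of 1.29 (0.585 to 3.35), for which no difference was detectable at this depth. With the level lowered to 1 CPM, 7 of the 10 genes could be counted, of which 1, SPINK1, was at least 2-fold higher in CTR GFP-positive cells, 4 (AFP, TTR, SERPINA1 and FGB) were lower and 2 (ALB and FGG) were within 2-fold. Of all 18786 genes at that level 14.1% were higher and 17.0% lower. The CTR GFP-negative library also belongs to the contrast by which the genes were selected, so nothing is read from these counts.

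The gene whose pattern was most like that of AFP over the 4 libraries was another of the group, SERPINA1, at a Euclidean distance of 0.85 between the centred log2(CPM + 1) values. Among 12406 genes with at least 10 CPM in a library, the next were APOA4, an apolipoprotein of gut and liver (distance 1.64), HABP2, a plasma protease (2.17), FGB (2.41) and ITIH2 (2.48). APOA4 had 2947 reads in RA GFP-negative cells, 215 in RA GFP-positive cells, 2 in CTR GFP-negative cells and 13 in CTR GFP-positive cells. HABP2 had 1288 and 65 reads in the RA libraries and 0 in both controls. SPINK1 ranked 12th, FGA 25th, FGG 94th, ALB 117th and TTR 12063rd. The ranking is a description over 4 libraries, 2 of which chose the group.

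Other secreted liver proteins were mostly at low levels, so lists were counted at 10 CPM and again at 1 CPM, where 8.69% of all 18642 genes were at least 2-fold higher and 7.61% lower with RA in GFP-negative cells. Of 16 other protease inhibitors of liver and plasma, 6 had at least 10 CPM in a GFP-negative library, of which 3 were at least 2-fold higher with RA, 0 were lower and 3 were within 2-fold (median log2 difference 1.29). From 1 CPM, 9 passed, with 6 higher, 0 lower and 3 within 2-fold. AMBP, the precursor of bikunin, the partner of the ITIH2 chain, had 998 reads against 6, a ratio of 30.4 (13.9 to 83.1). SERPINA4 (kallistatin), with 268 reads against 0, was at least 16.3-fold higher, and SERPINA5, the protein C inhibitor, was 6.94-fold (4.24 to 12.2) higher.

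Of 13 other carrier proteins 2 reached 10 CPM, VTN (vitronectin), 7.26-fold (5.17 to 10.5) higher with RA, and CP (ceruloplasmin), with a ratio of 0.361 (0.274 to 0.479). From 1 CPM, 9 carriers passed, with 6 higher, 1 lower and 2 within 2-fold. Those at low levels included the vitamin D carrier GC, with 89 reads against 0 (at least 5.43-fold), and RBP4, the retinol carrier that partners TTR, with 97 against 1 and a ratio of 17.8 (3.11 to 708). Of 14 coagulation and fibrinolysis factors 1 reached 10 CPM, F10, which was 2.39-fold (1.83 to 3.18) higher. From 1 CPM, 7 of them passed, with 3 higher, 0 lower and 4 within 2-fold, among them prothrombin, F2, with 110 reads against 0 (at least 6.71-fold). Of 10 complement components 4 reached 10 CPM, with 0 higher, 2 lower and 2 within 2-fold. CFB had a ratio of 0.441 (0.393 to 0.495) and C3 of 0.486 (0.473 to 0.499), both lower with RA. From 1 CPM, 7 passed, with 1 higher, 2 lower and 4 within 2-fold.

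Of the 12 hepatic transcription factors listed, 11 were matched and 5 had at least 10 CPM, of which 4 were at least 2-fold higher with RA, 0 were lower and 1 was within 2-fold (median log2 difference 2.72). From 1 CPM, all 11 passed, with 9 higher, 0 lower and 2 within 2-fold. FOXA1, which opens liver and gut enhancers, had 491 reads against 2, a ratio of 44.9 (12.4 to 372). HNF4A, a nuclear receptor of hepatocytes and gut epithelium, had 458 against 3, a ratio of 27.9 (9.50 to 136), and CEBPA had 360 against 6, a ratio of 11 (5.0 to 30.1). Of 2 listed repressors of AFP, 1 reached 10 CPM, ZHX2, which was within 2-fold with a ratio of 1.45 (1.13 to 1.87). The other, ZBTB20, passed at 1 CPM and was also within 2-fold, with 18 reads against 6 and a ratio of 0.549 (0.209 to 1.69), for which no difference was detectable at this depth.

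The genes were also set beside markers of hepatocytes and of other endoderm, to check what the name of the group covers. Of 14 hepatocyte enzymes and receptors 3 had at least 10 CPM (CPS1, TDO2 and ASGR1), with 0 higher, 0 lower and 3 within 2-fold. From 1 CPM, 7 passed, with 3 higher, 0 lower and 4 within 2-fold. Among the higher ones were ASGR2, a receptor subunit, with 82 reads against 0 (at least 5.0-fold), and PCK1, of gluconeogenesis, with 86 against 0 (at least 5.25-fold). ARG1, TAT, CYP3A4 and G6PC, all at 0 reads in both GFP-negative libraries, are defining enzymes of mature hepatocytes, and CYP3A7, the fetal form, had 24 reads after RA and none, 0, after DMSO. Of 10 intestinal genes 4 reached 10 CPM, with 3 higher and 1 within 2-fold, and from 1 CPM 8 did, with 7 higher and 1 within 2-fold. MEP1A, a brush border protease, had 338 reads against 0 (at least 20.6-fold), VIL1, a brush border protein, was 24.1-fold (11 to 65.9) and CDX2, an intestinal transcription factor, 11.6-fold (5.60 to 29.1) higher. Of 7 stomach genes 2 reached 10 CPM, TFF1 (304 reads against 0, at least 18.5-fold) and CLDN18 (15.6-fold, 7.13 to 42.7), and from 1 CPM 5 did, with 5 higher and 0 lower. Of 9 pancreatic genes 1 reached 10 CPM, PDX1, with 357 reads against 1 and a ratio of 65.3 (11.7 to 2587), and from 1 CPM 5 did, with 4 higher and 1 within 2-fold.

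Of 6 visceral endoderm genes, which mark the yolk sac, 5 reached 10 CPM, with 1 higher, 1 lower and 3 within 2-fold, and from 1 CPM 6 did, with 1 higher, 1 lower and 4 within 2-fold. AMN was 6.46-fold (4.35 to 10.0) higher and LRP2 had a ratio of 0.397 (0.375 to 0.420). General epithelial genes included EPCAM, 7.03-fold (5.67 to 8.83) higher, and CLDN6, 4.94-fold (3.80 to 6.53) higher, with the other 4 within 2-fold. Of 8 myeloid and erythroid genes 1 reached 10 CPM, LYZ, a lysozyme made by myeloid cells and also by gut glands, 34.5-fold (14.8 to 107) higher, and from 1 CPM 5 did, with 1 higher, 1 lower and 3 within 2-fold. Of 6 stromal genes 4 were higher with RA and 2 were within 2-fold. Of 6 cardiomyocyte genes 2 were lower and 4 within 2-fold. Both liver and gut genes were thus among those higher with RA, and which cells of the GFP-negative population held their RNA was not tested.

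**Figure D5:**
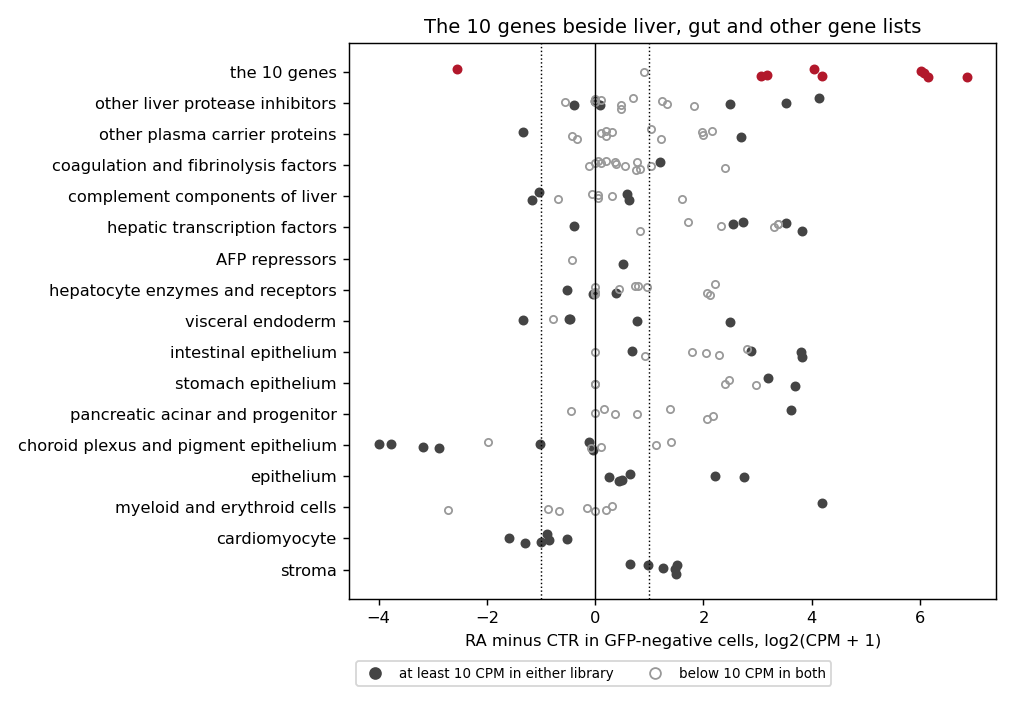
Difference of log2(CPM + 1) between RA and control in GFP-negative cells for each gene of the group (red) and of 16 other lists, filled where at least 10 CPM was reached in either library and open where it was not, with dotted lines at 2-fold. The 4 largest differences of the group, 6.03 to 6.87, lie to the right of those of all listed genes, and TTR at -2.55 lies to the left of 0, as do TYR, DCT and PMEL. These 4 largest belong to the genes whose increases in this contrast led to the choice of the group, so nothing is read from their place.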

How the data were processed

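Per the labels and the study's methods, strand-specific libraries of sorted cells were sequenced as read pairs and trimmed, and the authors mapped the reads to a modified hg19 assembly (GSNAP, then SAMtools 0.1.18). The authors kept unique alignments and counted them per Ensembl gene with HTSeq 0.6.1p1, without strand. The deposited values are these raw counts, with no normalization; the Ensembl release is not given in the sources used here. Multiply aligned reads were dropped, which can lower genes with near copies.

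Symbols were matched by Ensembl identifier for 55538 of 60234 genes (92.2%), with coordinates and exon lengths from the GENCODE annotation lifted to GRCh37. GIF and PRSS2 of the lists are not analysed here, and some other items are not reported here. CPM used TMM factors of edgeR 4.0.16 in R 4.3.3 (0.951, 0.979, 1.00 and 1.07 for RA GFP-positive, RA GFP-negative, CTR GFP-positive and CTR GFP-negative) and differences a pseudocount of 1 CPM. With 1 library per group there is no test. Intervals (95%) are Clopper-Pearson for ratios and exact Poisson for CPM. Reads are not independent molecules, so these intervals hold the error of counting alone, and so does the floor of 3 reads. A gene counted as higher or lower when log2(CPM + 1) differed by at least 1, called 2-fold here, and it had at least 10 CPM in either library.

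The members and lists were chosen with earlier results of these data known. Named are the 10 genes, up to 3 genes of each list with at least 10 CPM and the largest RA difference in GFP-negative cells, the 5 genes nearest to AFP, and the genes nearest to the 2-fold threshold. LGR5, RPE65, KL, FOLR1, KCNJ13, GC, RBP4, F2, ASGR2, PCK1, PROX1, ARG1, TAT, CYP3A4, G6PC and CYP3A7 fall outside that rule and were chosen after their values were seen. ZBTB20, below 10 CPM in the GFP-negative libraries, also falls outside it. Alternatives were other scalings (library size, DESeq2 1.42.0 size factors, upper quartile, TMM of each pair, library size without the 10 most abundant and the mitochondrial genes), a pseudocount of 0.25 or 5 CPM, thinning to 4371101 reads, other filters, a 4-fold threshold and other transcript lengths. The procedure was tested on simulated data. Plots used matplotlib 3.10.9 (Python 3.11.15).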

Additional observations from a re-analysis of the deposited data

Results flagged for a closer look

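AHSG had opposite signs of the RA difference in GFP-negative and GFP-positive cells. It was 0.89 on the log2(CPM + 1) scale in GFP-negative cells, with 22 reads against 0, and -0.14 in GFP-positive cells, with 0 reads against 3. Whether the fractions differed was not tested, as each group has 1 library, and all 4 levels were below 1 CPM.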

How the results depend on the processing

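The differences of the 10 genes were recomputed under 8 alternatives in 4 comparisons, 320 values in all, of which 0 changed sign. Of these, 59 moved by more than their counting error. In GFP-negative cells AFP ranged from 5.88 to 7.17 and ITIH2 from 4.11 to 7.53, the lowest at a pseudocount of 5 CPM and the highest at 0.25 CPM. Under library size alone the median of all genes in this comparison was -0.06 in place of 0.08. The summed level in RA GFP-negative cells was then 1050 CPM.

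Counts of genes moved more. With a filter at 1 CPM, 1620 genes were higher and 1418 lower with RA in GFP-negative cells, and 889 and 371 in GFP-positive cells. The fractions then differed in 1847 genes higher and 2546 lower in RA GFP-positive cells, and in 2646 and 3191 in the control. Of the 10 genes, 4 were then higher and 1 lower with RA in GFP-positive cells, and 1 higher and 4 lower in CTR GFP-positive than in CTR GFP-negative cells. Having no filter gives these counts again by construction, since a difference of 1 in log2(CPM + 1) needs 1 CPM. At 4-fold the counts were 151 and 58, 142 and 19, 368 and 573, and 440 and 749, in the same order. At a pseudocount of 5 CPM, 208 genes were lower with RA in GFP-negative and 112 in GFP-positive cells.

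With the longest or the canonical transcript as the length, AFP over ALB was 20.5 and FGB over FGG 2.62 in RA GFP-negative cells, and FGB over FGA was 4.35 with the longest and 2.63 with the canonical transcript. No paired analysis was possible because each group has 1 library and the labels give no replicate numbers. Leaving out a library was not possible for the same reason. The depth of the CTR GFP-negative library limits levels there under 0.639 CPM.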
